A study of Mus musculus with 22 samples.

Results

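The T cell lineage and cytotoxic genes are 10 of the 46078 genes counted in the distal colon of C57BL/6 and Winnie mice. They were taken by symbol: the 3 CD3 chains Cd3e, Cd3d and Cd3g, the coreceptor genes Cd4, Cd8a and Cd8b1, and the cytotoxic genes Gzma, Gzmb, Prf1 and Nkg7. RNA was sequenced from 22 mice, each giving 1 library. The C57BL/6 group held 8 mice aged 14 weeks (4 males, 4 females). The Winnie group held 7 mice aged 14 weeks (3 males, 4 females), in which a missense mutation of Muc2, the main mucin of the colon, leads to spontaneous colitis. The Winnie-Prolapse group held 7 Winnie mice with rectal prolapse aged 18 weeks (4 males, 3 females), so prolapse and the older age cannot be told apart. C57BL/6 and Winnie mice came from 1 breeding colony, no mouse is labelled as treated, and the labels and methods used here name no control with prolapse.

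The CD3 chains form the signalling part of the T cell receptor, and together they mark T cells of every kind. CD4 and CD8 are the coreceptors that bind MHC class II and class I, CD8 occurring as a dimer of alpha chains (Cd8a) alone or of an alpha and a beta chain (Cd8b1), and the alpha dimer is common on lymphocytes lying within the gut epithelium. Cytotoxic T cells and natural killer (NK) cells store perforin (Prf1), which opens the membrane of a target cell, and granzymes (Gzma, Gzmb), the serine proteases that enter through it. Nkg7 is a membrane protein of the cytotoxic granule.

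In the Winnie-Prolapse colon, 7 of the 9 members tested against C57BL/6 rose past the threshold the study used, from 3.09-fold for Cd3e to 16-fold for Gzmb, beside 9.84% of all genes tested. In the Winnie colon, none of the 9 passed that threshold in edgeR, whereas DESeq2 called 4, and 7 passed a looser one in edgeR beside 7.42% of all genes, and Gzmb had the largest difference, 9.19-fold. Between Winnie-Prolapse and Winnie no member passed either threshold with both sexes fitted together. Within libraries, Gzmb per Cd3e was 2.42 ± 0.41 (SE) higher on the log2 scale in Winnie-Prolapse than in C57BL/6, a call that was lost with medians in place of means (2.17), and Cd4 per Cd8a differed by -0.24 ± 0.47.

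All members were rare in these libraries, which held 24817527 to 36344372 counts. The sum of the 10 was 4.16 to 18 CPM (counts scaled to 1000000 of the library total) in C57BL/6, 11 to 39.3 CPM in Winnie and 20.1 to 49 CPM in Winnie-Prolapse. Of the members, 9 had at least 1 count in every library, and Prf1 was at 0 in 1 C57BL/6 library, where a count of 0 allows up to 3 counts or 0.103 CPM. These limits and all counting intervals cover only the error of counting, because the reads carry no molecular identifier and copies of 1 molecule are not told apart. The labelled tissue matched its markers: all 12 colon epithelium genes were detected in every group, with a summed level of 10800 to 26600 CPM. Muc2 itself, whose missense mutation need not change its read count, was at 3590 ± 1790 CPM (SD, n = 8) in C57BL/6, 2140 ± 813 (n = 7) in Winnie and 1890 ± 589 (n = 7) in Winnie-Prolapse, and is no check of the labels.

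Positions are given on build GRCm38 from the gene models of GENCODE M21. The CD3 genes lie side by side on chromosome 9: Cd3g at chr9:44969572-44980431 on the minus strand, Cd3d at chr9:44981786-44987339 on the plus strand and Cd3e at chr9:44998740-45009627 on the minus strand. Cd3g and Cd3d start back to back, with 1354 bases between them. Cd3e overlaps 2 predicted genes, Gm48719 on the other strand and Gm48720 on its own, so its count is uncertain to that extent. Cd8b1 (chr6:71322788-71337494, plus strand) lies 35932 bases from Cd8a (chr6:71373427-71379173, plus strand), and Cd4 (chr6:124864692-124888221, minus strand) is on the same chromosome. Gzma is at chr13:113093825-113100981 on the minus strand, Gzmb at chr14:56258838-56262260 on the minus strand, Prf1 at chr10:61297833-61304680 on the plus strand and Nkg7 at chr7:43437073-43438249 on the plus strand.

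Promoters are shown as a description of sequence, and no link between them and the members' levels was tested. RefSeq promoters (GRCm38.p6) were matched for 8 of the 10 members, all but Cd4 and Cd8b1. The 250 bases before the start were searched on both strands for the short motifs of factor families known in lymphocytes and for a TATA motif, whose letters stand with their counts. The neighbouring Cd3g and Cd3d and the pair Gzma and Gzmb are printed 5′ to 3′ on the gene's own strand, with matches in capitals.
Cd3g (chr9:44980432-44980681, minus strand): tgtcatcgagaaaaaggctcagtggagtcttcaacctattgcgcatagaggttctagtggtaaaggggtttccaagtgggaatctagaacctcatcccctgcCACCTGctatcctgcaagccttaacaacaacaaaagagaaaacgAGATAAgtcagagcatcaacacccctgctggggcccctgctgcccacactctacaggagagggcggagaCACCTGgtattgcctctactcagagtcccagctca
Cd3d (chr9:44981536-44981785, plus strand): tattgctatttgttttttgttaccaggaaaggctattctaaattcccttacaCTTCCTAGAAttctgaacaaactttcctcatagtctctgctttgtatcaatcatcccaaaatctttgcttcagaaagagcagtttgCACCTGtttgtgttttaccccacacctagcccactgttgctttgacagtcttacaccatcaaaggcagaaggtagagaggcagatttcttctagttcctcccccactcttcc
Gzma (chr13:113100982-113101231, minus strand): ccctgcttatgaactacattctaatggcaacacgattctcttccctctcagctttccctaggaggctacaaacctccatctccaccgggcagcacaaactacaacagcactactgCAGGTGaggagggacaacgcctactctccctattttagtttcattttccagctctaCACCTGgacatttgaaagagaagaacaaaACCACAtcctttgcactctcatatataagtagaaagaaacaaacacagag
Gzmb (chr14:56262335-56262584, minus strand): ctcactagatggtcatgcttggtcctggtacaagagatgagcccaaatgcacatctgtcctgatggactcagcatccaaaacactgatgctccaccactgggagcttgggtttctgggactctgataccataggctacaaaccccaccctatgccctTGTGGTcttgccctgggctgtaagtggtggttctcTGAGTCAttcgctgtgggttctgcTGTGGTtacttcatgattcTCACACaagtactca

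The capitals in Cd3g are 2 E-boxes and 1 GATA match, and in Cd3d an ETS and a STAT match that overlap, then an E-box. In Gzma they are 2 E-boxes and 1 RUNX match. In Gzmb they are 2 RUNX matches with an AP-1 match between them, and a T-box match near the start. The RUNX letters, searched as TGTGGT, occurred in 4 of the 8 member promoters (Gzma, Gzmb, Nkg7, Prf1), against 14.0% of 32851 promoters of the same length. The E-box, with the letters CAGGTG, occurred in 4 (Cd3d, Cd3g, Gzma and Prf1) against 17.2% of all. The ETS motif, searched as AGGAAG, occurred in 4 (Cd3d, Cd3e, Nkg7 and Prf1) against 29.5%. The STAT motif, with TTCNNNGAA as its letters, occurred in Cd3d and Nkg7 against 7.02% of all promoters. The T-box motif, here GTGTGA, occurred in Gzmb and Nkg7 against 12.3%. The AP-1 motif, searched as TGANTCA, occurred in Gzmb alone against 6.75% of all. The GATA motif, with the letters AGATAA, occurred in Cd3g alone against 9.99%, and the TATA motif, written here as TATAAA, in none against 12.4%. A match describes the letters and is not a binding site.

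The first question was how far T cell and cytotoxic transcripts in the Winnie colon stood above those of age-matched C57BL/6 mice. Gene counts were compared with edgeR's quasi-likelihood test over all genes, and p-values were adjusted by the Benjamini-Hochberg method. A gene was called where it changed at least 1.5-fold with an adjusted p under 0.001, the limits of the study; the looser threshold was an adjusted p under 0.05 with the same fold. In whole tissue, more cells of a type and more RNA per cell cannot be told apart.

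Cd3e had 0.833, 1.13 and 3.01 CPM (lowest, median and highest library) in C57BL/6, 1.78, 2.09 and 5.48 CPM in Winnie and 2.36, 3.17 and 5.96 CPM in Winnie-Prolapse. C57BL/6 overlapped the other two groups only through 1 library, the female of replicate 5, since the next highest C57BL/6 library was at 1.45 CPM. On the log2 scale of the edgeR fit, Cd3e differed by 1.20 ± 0.31 (SE; adjusted p = 0.0139) in Winnie and rose by 1.63 ± 0.30 (adjusted p = 0.000359) in Winnie-Prolapse. That call was lost, at an adjusted p of at most 0.00126 in edgeR, without any 1 of C57BL/6 replicates 1, 2, 3 and 8 and Winnie-Prolapse replicates 1 and 7.

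Cd3d, the delta chain, ran from 0.171 over 0.326 to 1.2 CPM in C57BL/6, from 0.848 over 1.15 to 1.84 CPM in Winnie and from 1.17 over 1.8 to 3.38 CPM in Winnie-Prolapse. It differed by 1.57 ± 0.36 in Winnie (edgeR, adjusted p = 0.00762) and rose by 2.24 ± 0.37 in Winnie-Prolapse (adjusted p = 0.000145). The same C57BL/6 library reached into both Winnie ranges, and 6 of 7 Winnie-Prolapse libraries were above it.

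Cd3g, the gamma chain, had 0.381, 1.11 and 2.47 CPM in C57BL/6, 1.48, 2.47 and 5.7 CPM in Winnie and 2.91, 4.05 and 8.06 CPM in Winnie-Prolapse. All 7 Winnie-Prolapse libraries were above all 8 C57BL/6 libraries. The edgeR difference was 1.59 ± 0.38 in Winnie (adjusted p = 0.00967), and Cd3g rose by 2.07 ± 0.33 in Winnie-Prolapse (adjusted p = 0.000121).

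**Figure D1:**
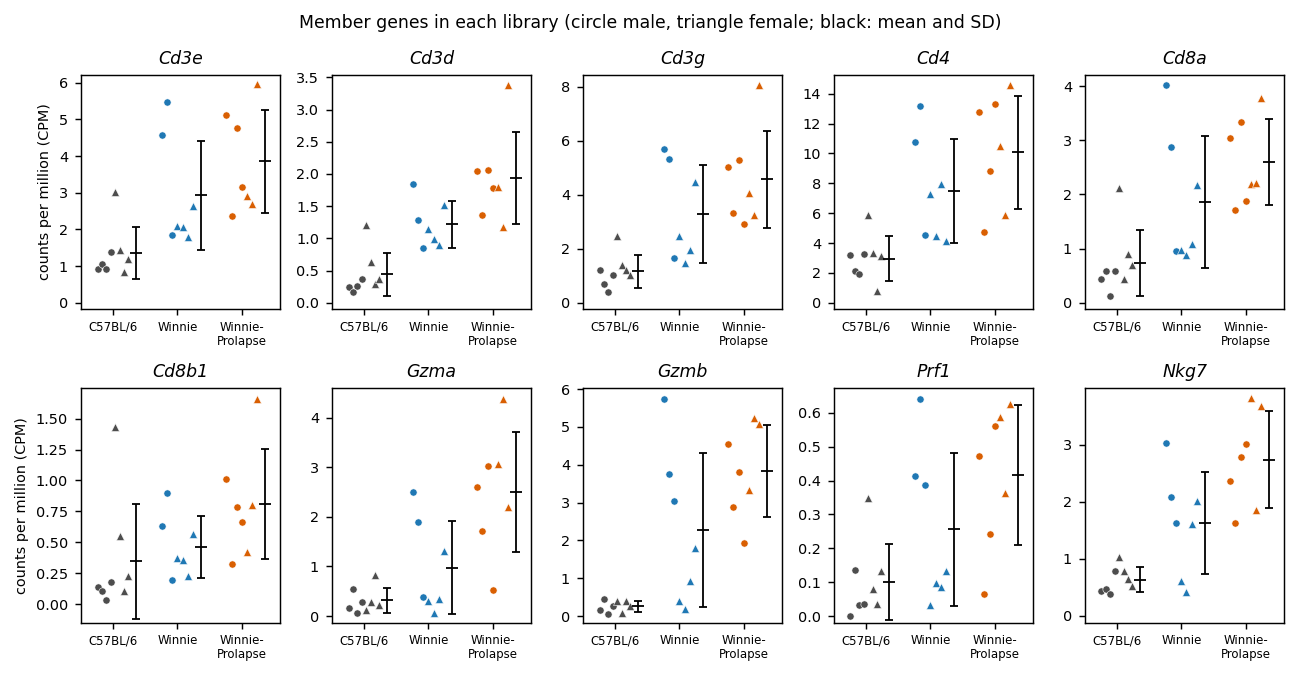
CPM of each member in each of the 22 libraries by group, with males as circles, females as triangles and the mean and SD in black; each panel has its own linear axis. The Winnie-Prolapse libraries of Cd3g, Gzmb and Nkg7 lie above every C57BL/6 library, and 1 C57BL/6 female stands above the rest of its group for Cd3e, Cd3d, Cd8a, Cd8b1 and Prf1.

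Cd4, the coreceptor of helper and regulatory T cells, had 0.761, 3.16 and 5.9 CPM in C57BL/6, 4.15, 7.26 and 13.2 CPM in Winnie and 4.72, 10.5 and 14.6 CPM in Winnie-Prolapse. It differed by 1.43 ± 0.35 in Winnie (edgeR, adjusted p = 0.0106) and rose by 1.86 ± 0.34 in Winnie-Prolapse (adjusted p = 0.000314). Of the Winnie libraries 4 of 7, and of the Winnie-Prolapse libraries 5 of 7, were above every C57BL/6 library. The call was lost without C57BL/6 replicate 2 or Winnie-Prolapse replicate 7 (edgeR, adjusted p = 0.00109 and 0.00106). Some macrophages and dendritic cells also transcribe Cd4, so it is not a T cell gene alone.

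Cd8a had 0.127, 0.58 and 2.12 CPM in C57BL/6, 0.886, 1.09 and 4.02 CPM in Winnie and 1.71, 2.22 and 3.79 CPM in Winnie-Prolapse. It passed the looser threshold in both comparisons and the study's in neither, by 1.44 ± 0.47 in Winnie (edgeR, adjusted p = 0.0355) and 1.93 ± 0.41 in Winnie-Prolapse (adjusted p = 0.00104). In Winnie it passed the looser threshold in 7 of 15 fits that left out 1 library, with an adjusted p up to 0.1 without Winnie replicate 1, and in Winnie-Prolapse its adjusted p in edgeR was 5.93e-05 without C57BL/6 replicate 5.

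Cd8b1 had 0.0317, 0.159 and 1.43 CPM in C57BL/6, which is 1 to 37 counts, 0.193, 0.372 and 0.897 CPM in Winnie and 0.323, 0.787 and 1.66 CPM in Winnie-Prolapse. Its differences, 0.54 ± 0.59 in Winnie (edgeR, adjusted p = 0.52) and 1.36 ± 0.60 in Winnie-Prolapse (adjusted p = 0.0676), passed neither threshold. This too turned on 1 library, since without C57BL/6 replicate 5 the difference in Winnie-Prolapse was 2.20 (edgeR, adjusted p = 0.00214), and without Winnie-Prolapse replicate 2 its adjusted p was 0.0472.

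Gzma, a tryptase, had 0.0635, 0.254 and 0.833 CPM in C57BL/6, 0.0656, 0.386 and 2.5 CPM in Winnie and 0.529, 2.6 and 4.39 CPM in Winnie-Prolapse. The Winnie libraries were split, with 4 inside the C57BL/6 range and 3 above it. The edgeR difference in Winnie was 1.71 ± 0.64 and missed the looser threshold (adjusted p = 0.0573; 0.0497, 0.0494 and 0.0174 without Winnie replicate 3, 4 or 5), while Gzma rose by 3.11 ± 0.50 in Winnie-Prolapse (adjusted p = 0.000125).

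Gzmb, which cleaves its substrates after aspartate and sets off apoptosis in the target cell, had 0.0635, 0.259 and 0.444 CPM in C57BL/6, 0.197, 1.81 and 5.75 CPM in Winnie and 1.92, 3.81 and 5.24 CPM in Winnie-Prolapse. Its mean of 3.83 ± 1.22 CPM (SD, n = 7) in Winnie-Prolapse stood against 0.257 ± 0.146 CPM (n = 8) in C57BL/6, with no overlap. The difference was 3.20 ± 0.62 in Winnie (edgeR, adjusted p = 0.00406), and Gzmb rose by 4.00 ± 0.38 in Winnie-Prolapse (adjusted p = 1.14e-06). In Winnie 2 libraries, both of females, stayed within the C57BL/6 range, and without the lower of them, replicate 5, Gzmb was called (edgeR, adjusted p = 0.000467).

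Nkg7 had 0.381, 0.591 and 1.04 CPM in C57BL/6, 0.427, 1.62 and 3.03 CPM in Winnie and 1.62, 2.78 and 3.82 CPM in Winnie-Prolapse. It differed by 1.45 ± 0.36 in Winnie (edgeR, adjusted p = 0.0114) and rose by 2.18 ± 0.25 in Winnie-Prolapse (adjusted p = 5.98e-06), again with no overlap between Winnie-Prolapse and C57BL/6. Prf1 had 0 to 9 counts in the C57BL/6 libraries, 1 to 20 in Winnie and 2 to 18 in Winnie-Prolapse, and failed edgeR's filter on low counts in both comparisons with C57BL/6. Without that filter its difference was 1.42 ± 0.63 in Winnie (edgeR, adjusted p = 0.147) and 2.14 ± 0.57 in Winnie-Prolapse (adjusted p = 0.00798). Summed over libraries, 22 Prf1 counts in C57BL/6, 56 counts in Winnie and 87 counts in Winnie-Prolapse gave ratios to C57BL/6 of 2.65 (95% counting interval 1.59 to 4.55) and 4.26 (2.64 to 7.14). These intervals leave out the spread between mice, so they are no test of the groups.

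Over the list, 0 of 9 members were called in Winnie against C57BL/6 by edgeR, beside 0.0868% of all genes called higher. At an unadjusted p under 0.05 there were 8, all higher, beside 20.5% of all genes. DESeq2 called 4 members (Cd3d, Cd3g, Cd4 and Gzmb), beside 3.46% of all genes called higher, and limma-voom 0, beside 0%. The looser threshold was passed by 7 of 9, all higher (Cd3e, Cd3d, Cd3g, Cd4, Cd8a, Gzmb and Nkg7), beside 7.42% of all genes. In Winnie-Prolapse against C57BL/6, 7 of 9 were called higher beside 9.84% of all genes, and 8 of 9 passed the looser threshold beside 16.7%. The groups did not overlap in CPM for 3 members in that comparison, beside 6.5% of all genes, and for none in Winnie against C57BL/6, beside 0.463%. Without C57BL/6 replicate 5 these counts were 7, beside 7.3% of all genes, and 4, beside 0.902%. Leaving out a library can only raise such counts or keep them. The median log2 difference of the members tested was 1.45 in Winnie and 2.07 in Winnie-Prolapse, against -0.01 over all genes in each. Both comparisons use the same 8 C57BL/6 libraries. Cd3d, Cd8b1, Gzma and Gzmb had at least 10 counts in only 4, 2, 2 and 3 of them, so these members passed the filter on low counts with the help of the libraries in which they were high, and the counts and medians over the members tested are descriptions.

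**Figure D2:**
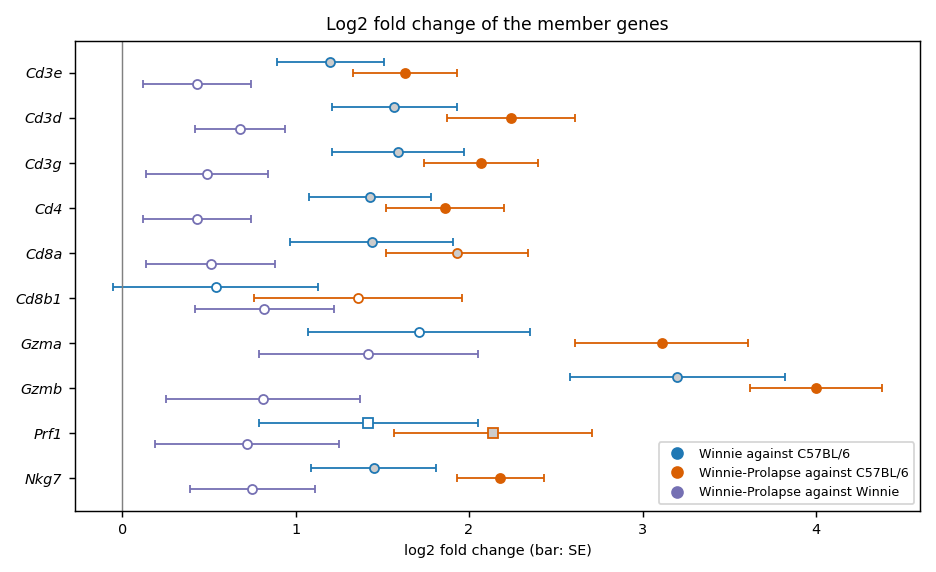
Log2 fold change of each member with its SE in the 3 comparisons, from edgeR; filled symbols passed the study's threshold, grey ones the looser threshold and open ones neither, and squares mark Prf1 fitted without the filter on low counts. With both sexes fitted together, all 10 members lie to the right of 0 in each comparison (in males alone 5 of them are no longer positive in Winnie-Prolapse against Winnie, each within its SE), Gzmb farthest with 3.20 and 4.00 against C57BL/6, and none is filled or grey in Winnie-Prolapse against Winnie.

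Winnie mice with prolapse were next compared with Winnie mice without. With both sexes together no member passed either threshold: 0 of 10 were called by edgeR, beside 0% of all genes, and 0 of 10 passed the looser threshold, beside 4.27% of all genes. DESeq2 and limma-voom likewise called 0, beside 2.19% and 0% of all genes called higher. The unadjusted p was under 0.05 for 2 of 10 (Cd3d and Gzma), beside 27.8% of all genes, and the groups overlapped for every member, beside 0.411% of genes that did not overlap. The differences ran from 0.43 ± 0.31 (SE) for Cd3e and Cd4 to 1.42 ± 0.63 for Gzma, with a median of 0.70 and adjusted p from 0.103 to 0.401 in edgeR. Gzma had 0.971 ± 0.94 CPM (SD, n = 7) in Winnie and 2.51 ± 1.21 CPM (n = 7) in Winnie-Prolapse. That difference was the largest on the log2 scale, whereas in CPM those of Cd4, from 7.49 to 10.1, and Gzmb, from 2.27 to 3.83, were larger. In males alone 5 of the 10 differences were no longer positive. They were -0.00 ± 0.47 for Cd3e, -0.00 ± 0.49 for Cd3g, -0.05 ± 0.54 for Cd8a, -0.32 ± 0.41 for Gzmb and -0.49 ± 0.61 for Prf1. Each was smaller in size than its SE (edgeR, adjusted p from 0.886 to 0.999), so no turn of direction can be read from them. In females alone all 10 were positive and 3 passed the looser threshold, Prf1 by 2.53 ± 0.42, Gzmb by 2.48 ± 0.64 and Gzma by 2.71 ± 0.74 (edgeR, adjusted p = 0.00778, 0.0366 and 0.0433). Prf1 had 1 to 4 counts in the Winnie females and 9 to 18 in the Winnie-Prolapse females, and passed the filter on low counts through the latter. Gzma, with 2 to 39 counts in the Winnie females, passed with their help. The share of all genes past the threshold in females alone was not taken, so the count of 3 is a description. The coefficient of variation was larger in Winnie than in Winnie-Prolapse for 8 of 10 members, such as Gzmb (89.5% and 31.8%) and Gzma (96.8% and 48.3%), and not for Cd3d (29.7% and 36.9%) or Cd8b1 (53.7% and 54.4%). The difference in spread was not tested.

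Levels between genes were set side by side per kilobase of exon (CPM per kb, means over libraries). In C57BL/6 Cd4 (0.733 ± 0.371, SD) and Nkg7 (0.699 ± 0.245) led, Cd3g (0.357 ± 0.188) and Cd3e (0.33 ± 0.173) followed, and Gzmb (0.179 ± 0.101) and Prf1 (0.0387 ± 0.0431) came last. In Winnie-Prolapse Nkg7 (2.99 ± 0.928), Gzmb (2.67 ± 0.847), Cd4 (2.5 ± 0.941) and Gzma (2.49 ± 1.2) stood at the head, above Cd3g (1.4 ± 0.547), Cd3d (1.07 ± 0.395) and Cd3e (0.945 ± 0.344). Gzmb was ninth of the 10 in C57BL/6 and second in Winnie-Prolapse, and in Winnie it stood at 1.58 ± 1.41 behind Cd4 and Nkg7. Neighbours in the order overlapped within 1 SD in each group, except Cd8b1 (0.546 ± 0.297) and Prf1 (0.161 ± 0.0797) in Winnie-Prolapse. Nkg7 was above Cd3g in 8 of 8 C57BL/6 libraries, Cd8a above Cd8b1 in 7 of 7 Winnie libraries and Cd3e above Cd8a in 7 of 7 Winnie-Prolapse libraries.

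Ratios of counts within a library, which do not depend on how libraries are scaled, were compared between groups for 8 pairs in 3 comparisons by two-sided exact permutation tests, adjusted over the 24. Gzmb to Cd3e had log2 ratios from -3.91 to -1.03 in C57BL/6, from -3.29 to 0.71 in Winnie and from -0.72 to 0.95 in Winnie-Prolapse, so the last group lay wholly above the first. As geometric means, there were 0.186 Gzmb counts per Cd3e count in C57BL/6, against 0.52 in Winnie and 0.999 in Winnie-Prolapse. The difference of Winnie-Prolapse from C57BL/6 was 2.42 ± 0.41 (SE; exact permutation p = 0.000466, adjusted p = 0.0112) and the only one of the 24 to pass 0.05 after adjustment. The call was lost with medians in place of means, at a difference of 2.17 (exact permutation, adjusted p = 0.0746), and it held with a pseudocount of 2 and without any 1 library. The difference was 2.13 in males alone (exact permutation, adjusted p = 0.171) and 2.79 in females alone (adjusted p = 0.343), where the smallest p that 4 against 4 and 4 against 3 mice allow is 0.0286 before adjustment over the 24, so these p-values say nothing about stability. In Winnie the same ratio differed by 1.48 ± 0.65 (exact permutation p = 0.0378, adjusted p = 0.151).

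Gzma to Cd3e had a mean log2 ratio of -2.26 ± 1.39 (SD) in C57BL/6, against -2.19 ± 1.29 for Winnie and -0.75 ± 1.05 for Winnie-Prolapse. Its difference from C57BL/6 was 0.07 ± 0.69 in Winnie (exact permutation p = 0.929) and 1.51 ± 0.63 in Winnie-Prolapse (exact permutation p = 0.0371, adjusted p = 0.151). Gzma to Gzmb differed by -1.41 ± 0.46 in Winnie (exact permutation p = 0.00668, adjusted p = 0.0802) from C57BL/6, where there were 1.12 Gzma counts per Gzmb count. Nkg7 to Cd3e differed by 0.53 ± 0.22 in Winnie-Prolapse (exact permutation p = 0.0281, adjusted p = 0.151), and Prf1 to Cd3e by 0.61 ± 0.50 (exact permutation p = 0.244).

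The coreceptor ratios gave no difference past the test. Cd4 to Cd8a was 2.14 ± 1.19 (SD) on the log2 scale in C57BL/6, against 2.11 ± 0.71 for Winnie and 1.90 ± 0.53 for Winnie-Prolapse, or 4.41, 4.32 and 3.74 Cd4 counts per Cd8a count. Its differences from C57BL/6 were -0.03 ± 0.50 (exact permutation p = 0.961) and -0.24 ± 0.47 (exact permutation p = 0.652), so that a change of either sign lay within the errors. Cd8b1 to Cd8a, the beta chain against the alpha chain, had a mean log2 ratio of -1.46 ± 0.98, -1.89 ± 0.50 and -1.78 ± 0.46, and the differences of -0.43 ± 0.40 (exact permutation p = 0.334) and -0.31 ± 0.39 (exact permutation p = 0.474) were within the spread of the libraries.

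**Figure D3:**
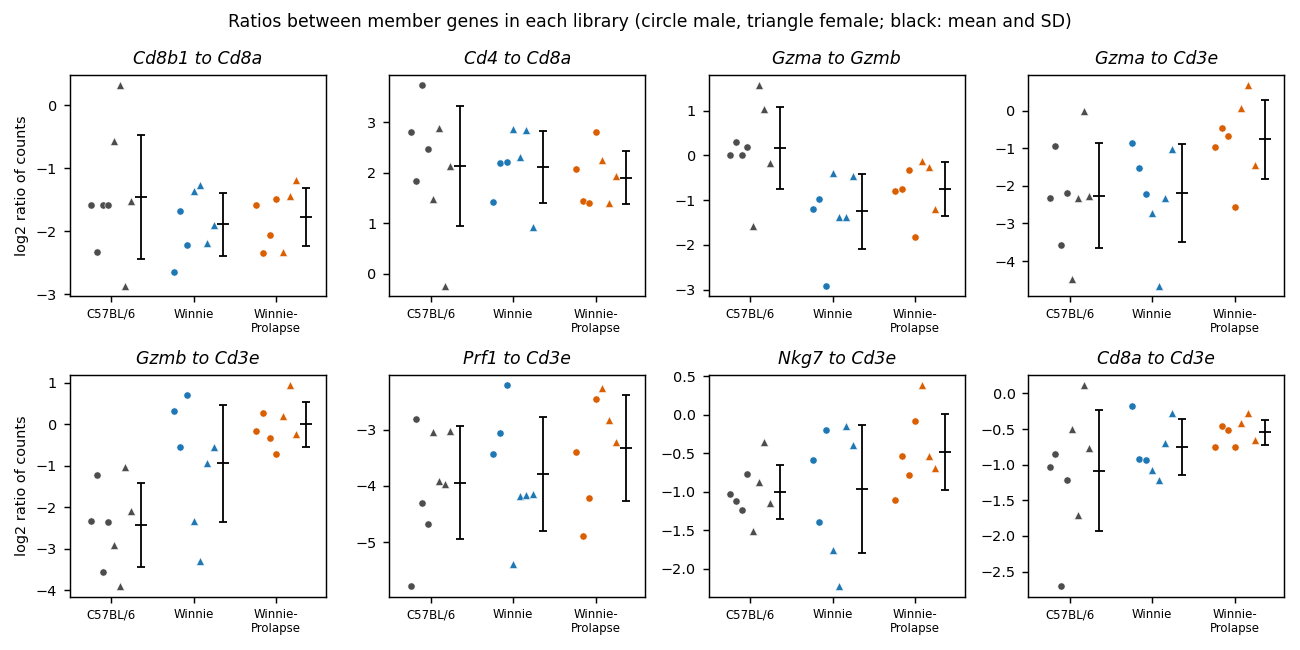
Log2 ratio of counts of 8 pairs of members in each library (circles males, triangles females, mean and SD in black; each panel with its own axis). Gzmb to Cd3e in Winnie-Prolapse, from -0.72 to 0.95, lies above every C57BL/6 library, which reach at most -1.03, whereas the groups overlap for Cd4 to Cd8a and Cd8b1 to Cd8a.

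Libraries differed together across members. Over the 22 libraries, the log2 CPM of Cd3e had a Pearson r of 0.93 with Cd3d and with Cd3g, 0.90 with Cd8a, 0.89 with Cd4, 0.81 with Gzmb and 0.66 with Gzma, a description that includes the difference between groups and shared library depth. Within groups, 27 relations with Cd3e were tested by exact permutation, 9 in each group. By r, 3 relations of C57BL/6, 4 of Winnie and 4 of Winnie-Prolapse passed an adjusted p of 0.05, and by rho 1, 1 and 0. In C57BL/6 the 3 were Cd3d (r = 0.91, rho = 0.74), Cd8b1 (r = 0.92, rho = 0.86) and Nkg7 (r = 0.81, rho = 0.74), with adjusted p of 0.022, 0.022 and 0.0263 for r by exact permutation, while by rho only Cd4 passed (r = 0.78, rho = 0.93, adjusted p = 0.0375 for rho by exact permutation). Without the 2 C57BL/6 libraries farthest from the median of Cd3e, r was 0.80, 0.83, 0.96 and 0.62 for Cd3d, Cd8b1, Nkg7 and Cd4. In Winnie, Cd8b1 followed Cd3e with r = 0.91 (exact permutation p = 0.000595, adjusted p = 0.0161) and rho = 0.96 (adjusted p = 0.0375), and r was 0.95 without the 2 libraries farthest from the median of Cd3e. In Winnie-Prolapse, Cd8a followed with r = 0.95 (exact permutation p = 0.00397, adjusted p = 0.022), rho = 0.82 (adjusted p = 0.115) and r = 0.90 without those 2. Gzmb had r = 0.65 in Winnie (exact permutation p = 0.115), rho = 0.57 (p = 0.2) and r = 0.04 without the 2 libraries, so that relation rested on them. Gzma had r = 0.82 in Winnie (exact permutation, adjusted p = 0.0399), rho = 0.68 (adjusted p = 0.197) and r = 0.56 without the 2 libraries. With a prior count of 0.5 for log2 CPM its r was 0.79 and no longer passed (exact permutation, adjusted p = 0.0672). In Winnie-Prolapse its relation to Cd3e did not pass the test, with r = 0.11 (exact permutation p = 0.858) and rho = -0.14 (p = 0.783).

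**Figure D4:**
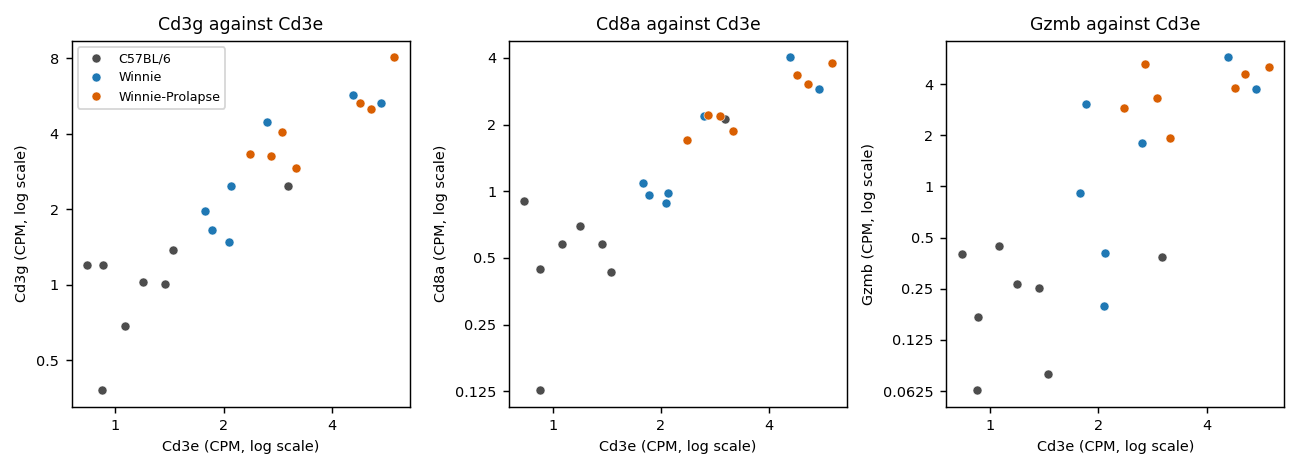
CPM of Cd3g, Cd8a and Gzmb against CPM of Cd3e in each library, on log axes, coloured by group. Over all 22 libraries Cd3g and Cd8a follow Cd3e (r = 0.93 and 0.90), though within C57BL/6 neither relation passed the test (r = 0.70 and 0.67), and Gzmb in the C57BL/6 library with the highest Cd3e, 3.01 CPM, stays at 0.386 CPM.

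The C57BL/6 female of replicate 5 was the highest of its group for 8 of 10 members and not for Gzma (0.116 CPM) or Gzmb (0.386 CPM). The same library had the highest sum of the 10 B cell and follicle genes, 351 CPM against 4.27 to 175 CPM in the other C57BL/6 libraries, and the highest sum of the 11 CD4 T cell and T follicular genes, 75.8 CPM with a group median of 27.8 CPM. No gene of either list was at 0 in the group. The part of this in the members' levels was not tested. The library was singled out as the highest for 8 members, so larger differences for them without it follow from that choice. Without the library, the log2 differences from C57BL/6 in Winnie-Prolapse were 1.91 ± 0.26 for Cd3e, 2.65 ± 0.31 for Cd3d, 2.33 ± 0.31 for Cd3g, 2.08 ± 0.33 for Cd4, 2.39 ± 0.34 for Cd8a and 2.33 ± 0.25 for Nkg7 (SE), and 8 of 9 members were called (edgeR, adjusted p from 3.32e-06 to 0.00214). In Winnie they were 1.48 ± 0.27 for Cd3e, 1.97 ± 0.28 for Cd3d, 1.83 ± 0.37 for Cd3g, 1.64 ± 0.34 for Cd4, 1.88 ± 0.43 for Cd8a and 1.57 ± 0.37 for Nkg7, with 0 called and 7 of the 8 members tested past the looser threshold. The share of all genes called without this library was not taken, so these counts of members are descriptions. The Gzmb difference in Winnie-Prolapse stayed between 3.86 and 4.14 when any 1 library was left out. In Winnie, the males of replicates 1 and 2 held the highest value of all 10 members between them, and the female of replicate 5 the lowest of 5. In Winnie-Prolapse replicate 7, a female, was highest for 7 and replicate 2, a male, lowest for 6. Winnie-Prolapse replicate 6 carried 19% of its counts in milk protein genes, and had the highest Gzma (4.39 CPM) and Gzmb (5.24 CPM) of its group although CPM was taken over all its counts. With the milk protein genes removed, Cd8a was also called in Winnie-Prolapse (edgeR, adjusted p = 0.000972).

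Sex was compared because the labels give it for every mouse. Gzmb was 3.05 to 5.75 CPM in the 3 Winnie males and 0.197 to 1.81 CPM in the 4 Winnie females, and Prf1 0.386 to 0.641 CPM in the males and 0.0338 to 0.134 CPM in the females. The sexes did not overlap within Winnie for these 2 of 10 members, beside 14.3% of all genes with every Winnie male above every Winnie female, so the share among the members was near that of all genes. The other 8 members overlapped, such as Cd3e with 1.85 to 5.48 CPM in males and 1.78 to 2.64 CPM in females. In C57BL/6 the order was not the same, with Prf1 at 0.0512 ± 0.0593 CPM (SD, n = 4) in males and 0.149 ± 0.138 (n = 4) in females, and in Winnie-Prolapse Gzmb was 3.29 ± 1.15 (n = 4) in males and 4.55 ± 1.06 (n = 3) in females.

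The interaction of sex with group in Winnie against C57BL/6 was positive (a larger difference in males) for all 10 members, from 0.90 ± 0.69 (SE) for Cd4 to 3.75 ± 0.99 for Prf1. By edgeR 7 of 10 had an unadjusted p under 0.05, beside 18.2% of all genes, and 0 of 10 an adjusted p under 0.05, beside 0.247% (lowest adjusted p 0.0957, for Prf1). The members vary together, so these counts are not of independent genes. The C57BL/6 females include replicate 5, the highest of its group for 8 of 10 members, and its part in these interactions was not tested. In Winnie-Prolapse against Winnie the interaction was negative for all 10, -2.80 ± 0.84 for Gzmb and -3.04 ± 0.80 for Prf1. Of these, 2 had an unadjusted p under 0.05 in edgeR, beside 12.7% of all genes, and 0 passed after adjustment, beside 0%. This comparison shares the Winnie libraries with the one before it. In Winnie-Prolapse against C57BL/6, 0 of 10 were under 0.05 unadjusted (4.4% of all genes) or adjusted (0%). Males against females over all groups, with group in the model, gave 0 of 10 with an adjusted p under 0.05 in edgeR, beside 0.0793% of genes, and 0 at an unadjusted p under 0.05, beside 4.62%. Fitted on 1 sex, Gzmb in Winnie differed from C57BL/6 by 4.21 ± 0.49 in males (edgeR, adjusted p = 0.00113) and by 1.69 ± 0.71 in females (adjusted p = 0.246).

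Other genes of T cells and cytotoxic cells were followed in lists, beside 9.84% of all genes called higher in Winnie-Prolapse against C57BL/6 and a median over all genes of -0.01. In these lists Themis, Ubash3a, Sit1, Klrc1 and Ifng were tested in Winnie-Prolapse and not in Winnie against C57BL/6, having passed the filter through the Winnie-Prolapse libraries, and of them Ubash3a, Klrc1 and Ifng are among the genes called. Other called genes with few C57BL/6 counts, such as Tbx21 and Klrb1c (at most 10 in a library), passed with the help of the Winnie-Prolapse libraries, so the counts over these lists are descriptions. Of the 7 T cell receptor constant genes, 4 were called higher in Winnie-Prolapse against C57BL/6 (edgeR), with a list median of 1.82 on the log2 scale, and 6 of 7 passed the looser threshold in Winnie, beside 7.42% of all genes. Trac, the alpha chain, went from 1.24 ± 1.12 CPM (SD, n = 8) in C57BL/6 to 4.33 ± 1.9 (n = 7) in Winnie and 5.68 ± 2.19 (n = 7) in Winnie-Prolapse, where it rose by 2.29 ± 0.43 (SE; edgeR, adjusted p = 0.000411). Trbc1 and Trbc2, the near-identical beta constants between which reads may be split, rose by 2.33 ± 0.32 and 1.82 ± 0.36 (edgeR, adjusted p = 3.09e-05 and 0.000576). Of the receptor complex and signalling genes, 11 of 21 tested were called higher and 0 lower in Winnie-Prolapse, with a median of 1.68. Lcp2, an adaptor also used by myeloid cells, rose from 2.36 ± 1.13 to 12.5 ± 5.47 CPM (2.48 ± 0.30; edgeR, adjusted p = 9.84e-06). Lck, the kinase that starts receptor signalling, passed only the looser threshold (1.02 ± 0.28; edgeR, adjusted p = 0.00646), and Ptprcap neither (0.65 ± 0.44; adjusted p = 0.221).

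Granule and effector genes beyond the members did not move as a block. In Winnie-Prolapse against C57BL/6, 8 of 12 tested were called higher and 0 lower, with a median of 1.60 (edgeR). Ctsc, the protease that activates granzymes, rose by 1.81 ± 0.16 (edgeR, adjusted p = 5.08e-07) and Srgn, the granule proteoglycan, by 2.93 ± 0.35 (adjusted p = 8.27e-06); both are also made by myeloid cells. Lamp1 (-0.01 ± 0.09), Stxbp2 (-0.04 ± 0.08) and Rab27a (0.08 ± 0.16), which most secreting cells use, had adjusted p from 0.643 to 0.905 in edgeR. Ifng, named here after its values were seen because it stood apart, had at most 1 count in any C57BL/6 library and 4.28 ± 3.17 CPM (SD, n = 7) in Winnie-Prolapse, and passed the filter only through the latter. Of the 8 other granzymes, only Gzmm had enough counts to be tested, and it moved the other way, from 0.542 ± 0.122 CPM (n = 8) in C57BL/6 to 0.345 ± 0.111 (n = 7) in Winnie and 0.274 ± 0.155 (n = 7) in Winnie-Prolapse (-0.91 ± 0.29, SE; edgeR, adjusted p = 0.015, past the looser threshold only, beside 17.7% of all genes lower at that threshold). Gzmc had at most 2 counts in a C57BL/6 library, 13 in a Winnie library and 15 in a Winnie-Prolapse library. Gzmk had at most 2, 4 and 5 counts, Gzmf 0, 0 and 7, Gzmd 0, 1 and 4, Gzme 0, 1 and 3, and Gzmg 0, 1 and 2, and Gzmn was at 0 in every library. The granzymes from Gzmc to Gzmg and Gzmn are close copies next to Gzmb, so such few reads may be shared among them.

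Of the NK and NK receptor genes tested, 7 of 10 were called higher in Winnie-Prolapse and all 9 tested passed the looser threshold in Winnie (edgeR), beside 7.42% of all genes at that threshold. Klrk1, the activating receptor NKG2D, rose from 0.589 ± 0.22 CPM (SD, n = 8) to 2.72 ± 0.853 (n = 7) by 2.27 ± 0.22 (SE; edgeR, adjusted p = 1.44e-06), and Il2rb, the interleukin 2 receptor beta chain, by 2.58 ± 0.32 (adjusted p = 1.2e-05). Fcer1g (2.15 ± 0.23) and Tyrobp (2.10 ± 0.25), adaptors of NK and myeloid cells, rose as well (edgeR, adjusted p = 4.16e-06 and 8.41e-06). Ncr1, Klrg1, Klrc2 and Klre1 of this list had too few counts to be tested in Winnie-Prolapse against C57BL/6. Cd244a, among the genes called, is also on the intraepithelial lymphocyte list. The calls on this list therefore do not single out NK cells. NK cells also make Gzma, Gzmb, Prf1 and Nkg7, and the part of NK cells in the members' levels was not tested. Among intraepithelial lymphocyte genes 2 of 9 were called, with a median of 1.47. They were Cd244a and Trdc, already counted in the NK and the T cell receptor constant lists. Cd7 passed the looser threshold by 1.53 ± 0.33 (edgeR, adjusted p = 0.00135) and Itgae, the integrin that holds these cells in the epithelium, by 0.77 ± 0.28 (adjusted p = 0.0297), while Jaml was at 0.22 ± 0.16 (adjusted p = 0.253). Of the CD4 and T follicular genes 2 of 10 were called (Icos and Foxp3), with a median of 1.14, and those that passed the looser threshold only included Bcl6 and Tcf7, by 0.84 ± 0.19 and 0.72 ± 0.23 (edgeR, adjusted p = 0.00143 and 0.0147).

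**Figure D5:**
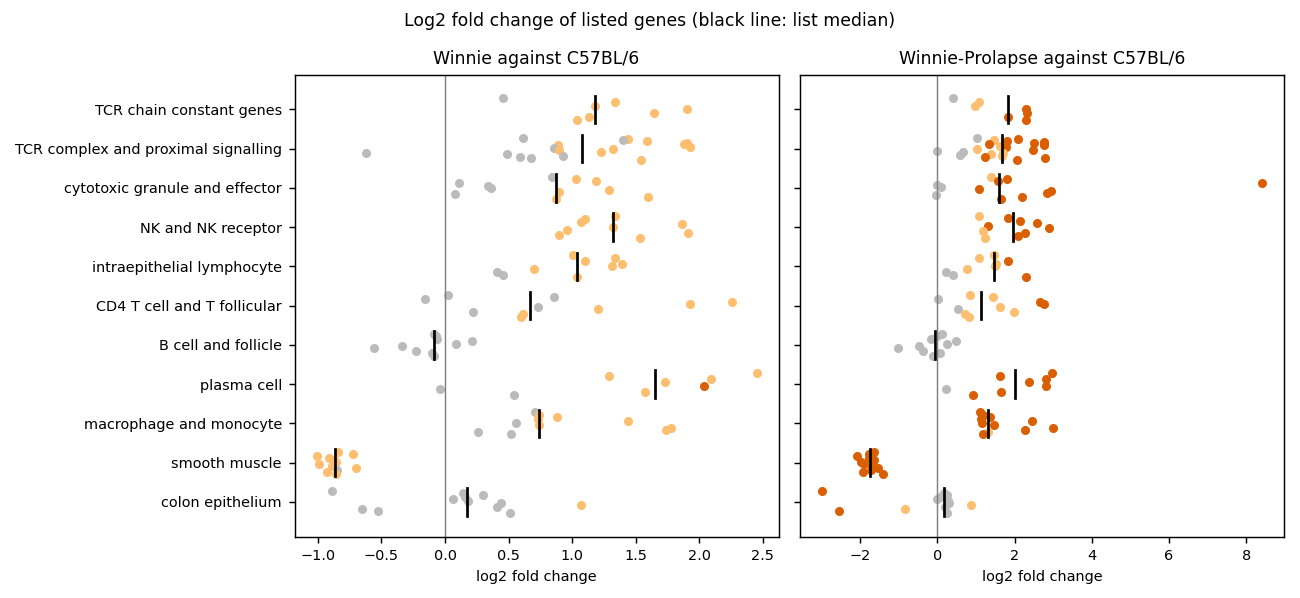
Log2 fold change (edgeR) of the genes of 11 lists in Winnie and in Winnie-Prolapse against C57BL/6; each point is 1 gene tested, dark orange past the study's threshold, light orange past the looser one only and grey past neither, with the list median as a black line. The medians of the T cell receptor, NK and plasma cell lists lie to the right of 0, though single genes such as Prkcq (-0.62 in Winnie) do not, B cell genes spread around 0 (medians -0.09 and -0.06), smooth muscle genes lie to the left, and the point at 8.42 is Ifng, whose size depends on at most 1 count per C57BL/6 library.

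Markers of other cells moved in the same libraries. The 12 smooth muscle genes summed to 8980 to 17200 CPM in C57BL/6, 2710 to 10300 CPM in Winnie and 1990 to 4560 CPM in Winnie-Prolapse, where 12 of 12 were called lower with a median of -1.74 (edgeR), beside 8.47% of all genes called lower. The 11 macrophage and monocyte genes summed to 131 to 318, 222 to 548 and 380 to 945 CPM, with 10 of 11 called higher in Winnie-Prolapse. The 10 neutrophil genes summed to 1.05 to 4.63, 2.82 to 167 and 87.4 to 1580 CPM. Of the 8 plasma cell genes 7 were called higher, whereas of the 10 B cell genes 0 were called and 0 passed the looser threshold. None of these lists had a gene at 0 throughout a group. A smaller share of muscle in the sample and more lymphocytes cannot be told apart by CPM, and the part of these shifts in the members' differences was not tested.

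Genes whose log2 CPM over the 22 libraries was most like that of a member were named by Pearson r among 17769 genes, as a description with no test. For Cd3e they were Zap70, Lat, Trac, Podnl1 and Cd5, with r from 0.94 to 0.95. For Cd4 they were Slamf7, Cd28, Dnase1l3, Pou2af1 and Runx3 (0.95 to 0.97), and for Cd8a Ctsw, Klrd1, Lat, Icos and Cd96 (0.91 to 0.94). For Gzmb they included Psmb9, Zbp1, Socs1 and Gbp6 (0.94 to 0.95), genes known to be induced by interferon, and none of these was on a list used here. For Nkg7 they included Spats2l, Il18bp, Ube2l6 and B2m (0.95). For Gzma they were Trim15, Ppef1, Gmppb, Trim40 and Ostc (0.89 to 0.91). Psmb9, a subunit of the immunoproteasome, was at 13.5 CPM in C57BL/6, 75 CPM in Winnie and 104 CPM in Winnie-Prolapse.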

How the data were processed

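Poly(A) RNA of distal colon was sequenced in paired ends from stranded libraries, 1 per mouse. The deposited table holds raw read counts per gene; by the study's methods the authors ran the RNAsik pipeline, and per the labels the processing used GRCm38, STAR, featureCounts and limma. The versions of STAR and featureCounts, the annotation release, the strand setting and the handling of shared reads are not given in the sources used here. The study's own analysis used fewer Winnie colons than are labelled and no prolapse mice, so its Winnie group is not the one used here. Groups, sex and age were read from the labels, which give each library as a separate mouse. Library pairs within a group differed beyond counting noise (lowest chi-square per degree of freedom 28.8), so none was counted as a duplicate.

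Tests used edgeR 4.0.16 under R 4.3.3 (quasi-likelihood F test, TMM, filterByExpr, no covariate), each comparison on its own groups, with Benjamini-Hochberg adjustment over all genes. The SE is the log2 fold change divided by the root of F. DESeq2 1.42.0 and limma-voom (limma 3.58.1) were alternatives, as were other filters, sex as a covariate, 1 sex alone, all groups in one fit, other quasi-likelihood fits, removal of milk protein genes and leaving out each library. CPM was scaled by library totals, with a prior count of 2 for log2 CPM. Ratios had 0.5 added to each count and, like correlations, were tested by exact permutation with scipy 1.17.1. Correlations and sex terms followed the same adjustment. Positions came from GENCODE M21 and promoters from RefSeq (GRCm38.p6). The edgeR fit was tested on simulated data.

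All 10 members were named. From each other list the genes with the highest mean CPM were named, 5 for the signalling, granule and NK lists, 3 for the rest and all 8 other granzymes, and for each of 6 members the 5 genes with the highest r; other genes are said to be named after their values were seen or are named with a list's calls. All 192 listed genes were found, 2 of them by an older symbol. Members, lists and tests were chosen with earlier results of these data known. No batch is labelled, so no within-batch values could be given. Some genes that the naming rule selected are not reported here.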

Additional observations from a re-analysis of the deposited data

Results flagged for a closer look

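In 54 groups of library values, those of the 10 members and of 8 ratios in 3 groups, 7 had 1 library far from the rest by Dixon's test, which chance gives in about 1 of 20. C57BL/6 replicate 5, a female, accounted for 5 of the 7: Cd3e at 3.01 CPM (next library 1.45), Cd3d at 1.2 CPM (next 0.629), Cd8a at 2.12 CPM (next 0.906), Cd8b1 at 1.43 CPM (next 0.551) and Prf1 at 0.347 CPM (next 0.137). These are values of 1 library, so they are not independent of each other. Winnie-Prolapse replicate 7 was far above its group for Cd3d, at 3.38 CPM (next 2.06). The log2 ratio of Gzma to Gzmb was far below its group in Winnie replicate 3, at -2.92 (next -1.38).

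For Cd8b1 and Prf1, the difference between Winnie and C57BL/6 ran in opposite directions in the sexes. Cd8b1 was at 0.574 CPM in Winnie males and 0.113 in C57BL/6 males, but at 0.383 in Winnie females and 0.58 in C57BL/6 females. Prf1 was at 0.48 CPM in Winnie males and 0.0512 in C57BL/6 males, but at 0.0881 in Winnie females and 0.149 in C57BL/6 females. The interaction of sex and group in edgeR was 2.84 ± 1.02 (SE; adjusted p = 0.174) for Cd8b1 and 3.75 ± 0.99 (adjusted p = 0.0957) for Prf1, and neither passed 0.05. The opposite direction did not hold without C57BL/6 replicate 5, the highest C57BL/6 library for both genes. Without it the C57BL/6 female mean (n = 3) was 0.297 CPM for Cd8b1 and 0.0825 CPM for Prf1. The Winnie females were at 0.383 and 0.0881 CPM. For Prf1 these are nearly equal, with 1 to 4 counts in each Winnie female library, so no direction can be read.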

How the results depend on the processing

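No paired analysis was possible because replicates were numbered only by their place among the samples and no mouse is matched to another. Of Winnie against C57BL/6, the 0 members called became 4 with DESeq2 and 1 with all 3 groups in one fit, and 0 to 1 when 1 library was left out; the 7 past the looser threshold became 4 with at least 10 counts in every library, which leaves fewer members to test, 0 in females alone, and 6 to 8 when 1 library was left out. Of Winnie-Prolapse against C57BL/6, the 7 called became 4 with that filter, 1 in males alone and 0 in females alone, and 5 to 8 when 1 library was left out; the 8 past the looser threshold became 4 with that filter. Fewer mice enter the fits of 1 sex. Of Winnie-Prolapse against Winnie, the 0 past the looser threshold became 3 in females alone. The share of all genes in the fits of 1 sex was not taken, so these counts of members are descriptions. Members whose groups did not overlap ranged from 0 to 4 in Winnie and from 3 to 7 in Winnie-Prolapse against C57BL/6 when 1 library was left out.

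Signs changed for differences that had passed no test; the cause was not tested. The log2 fold change of Cd8b1 in Winnie was -0.47 in females alone. In Winnie-Prolapse against Winnie, males alone gave -0.00 for Cd3e and Cd3g, -0.05 for Cd8a, -0.32 for Gzmb and -0.49 for Prf1, and log2 ratios of -0.40 for Gzmb to Cd3e and -0.84 for Prf1 to Cd3e. Each of these fold changes was smaller in size than its SE. In Winnie against C57BL/6, a pseudocount of 2 gave log2 ratio differences of 0.05 for Cd4 to Cd8a, -0.01 for Gzma to Cd3e and -0.25 for Prf1 to Cd3e, medians gave -0.20 for Prf1 to Cd3e, and females alone gave 0.67 for Cd4 to Cd8a, -0.41, -0.98, -0.16 and -0.10 for Gzma, Prf1, Nkg7 and Cd8a to Cd3e. In Winnie-Prolapse, females alone gave 0.30 for Cd4 to Cd8a. When 1 library was left out, the ranges in Winnie were -0.37 to 0.20 for Cd4 to Cd8a, -0.12 to 0.41 for Prf1 to Cd3e, -0.24 to 0.49 for Gzma to Cd3e and -0.09 to 0.26 for Nkg7 to Cd3e, and in Winnie-Prolapse against Winnie -0.01 to 0.22 for Cd8b1 to Cd8a. Depth limits Prf1 most, since 5 of 8 C57BL/6 libraries had at most 3 counts.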
